A study of Mus musculus with 8 samples.

Results

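The nuclear genes for the subunits of respiratory complexes II, III and IV and of ATP synthase (complex V), with the electron carrier cytochrome c, were examined in tibialis anterior (TA) muscle, a fast hindlimb muscle, of mdx5cv and wild-type (WT) mice. Genes were taken by name: the succinate dehydrogenase genes, names starting with Uqcr, Cyc1 and Cycs, the structural Cox genes numbered from 4i to 8, and names starting with Atp5. Of 55401 genes in the table, 61 matched, 10 of these carry a -ps name (pseudogenes, with or without a number) and were left out, and 51 remained: 4 of complex II, 10 of complex III with cytochrome c, 19 of complex IV and 18 of complex V.

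Whole TA muscle samples from male mice, all 6 mo old, were compared: 4 WT samples of the C57/Bl6 strain, untreated as far as the labels say, and 4 mdx5cv samples, from a Duchenne muscular dystrophy model on the same background. The mdx5cv allele is a germline change in Dmd, the dystrophin gene, so every cell of the muscle carries it. Stranded total RNA libraries were sequenced, and values are read counts divided by a size factor per library, called normalized counts here. Reads per library ran from 13175524 to 14502624 in mdx5cv and from 13862559 to 14921057 in WT, and Dmd, the mutated gene, ran from 3461 to 4400 normalized counts in mdx5cv and from 6169 to 8155 in WT (log2 difference -0.81, SE 0.12, adjusted p = 0.000177 by limma).

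Oxidative phosphorylation makes most of the ATP of resting and endurance-working muscle. Complex II passes electrons from succinate to ubiquinone, complex III passes them on to cytochrome c, complex IV (cytochrome c oxidase) hands them to oxygen, and complex V uses the proton gradient to make ATP. Complex II is built from nuclear genes alone, while the other complexes also hold subunits from mitochondrial DNA. Complex IV has striated muscle isoforms of some of its small subunits, namely Cox6a2, Cox7a1 and Cox8b, which take the place of the ubiquitous Cox6a1, Cox7a2 and Cox8a.

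The sequences just upstream of the start sites are shown for the isoform genes because the pairs of muscle and ubiquitous isoforms did not all move alike (RefSeq, build GRCm38.p6, 100 bases ending at the base before the RefSeq start, 5′ to 3′ on the gene's strand). The matched windows are those of Cox7a1, Cox8b, Cox6a1, Cox7a2 and Cox8a. No window was matched for Cox6a2, so the muscle isoforms are represented by Cox7a1 and Cox8b only. Capitals mark a match on either strand to any of 4 short motifs. An E-box, the site of myogenic and other helix-loop-helix factors, was spelled CANNTG. The TATA box, found at the core of many tissue-restricted promoters, was spelled TATAAA. The ETS motif, common in promoters of respiratory chain genes, was searched as CCGGAAG. The GC box, a site of Sp-family factors, was searched as GGCGGG. No match overlapped another in the windows shown. GENCODE M21 places the starts of Cox7a1, Cox6a1 and Cox7a2 slightly further upstream, inside the last bases of their windows.
Cox7a1 (chr7:30184071-30184170, + strand): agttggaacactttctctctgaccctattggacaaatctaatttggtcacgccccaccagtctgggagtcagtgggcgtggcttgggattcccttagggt
Cox8b (chr7:140900447-140900546, - strand): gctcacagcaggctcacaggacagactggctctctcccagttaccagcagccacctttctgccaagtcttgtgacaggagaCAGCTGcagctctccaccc
Cox6a1 (chr5:115348959-115349058, - strand): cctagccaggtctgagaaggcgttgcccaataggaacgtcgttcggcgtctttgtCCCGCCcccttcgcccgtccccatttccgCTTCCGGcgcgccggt
Cox7a2 (chr9:79759854-79759953, - strand): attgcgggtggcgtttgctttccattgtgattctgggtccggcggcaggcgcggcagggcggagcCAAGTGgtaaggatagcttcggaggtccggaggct
Cox8a (chr19:7217617-7217716, - strand): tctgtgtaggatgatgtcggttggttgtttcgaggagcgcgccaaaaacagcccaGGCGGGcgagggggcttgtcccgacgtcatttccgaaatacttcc

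The muscle isoform windows held 2 CpG dinucleotides (Cox7a1) and 0 (Cox8b), and the ubiquitous ones held 13 (Cox6a1), 9 (Cox7a2) and 9 (Cox8a). An E-box stood in the Cox8b and Cox7a2 windows and an ETS motif in that of Cox6a1. A GC box spelled GGCGGG stood in those of Cox6a1 and Cox8a. Other spellings of the GC box, such as the GGGCGG in the Cox7a2 window, were not searched. Windows of 300 bases (250 before the start, 50 after) were found for 35 of the 46 subunit genes tested, with 38 windows in all. The ETS motif was in 13 of these windows (34.2%) and in 8.86% of all 32851 RefSeq windows, the GC box in 18 (47.4%) against 35.3%, the E-box in 26 (68.4%) against 72.3%, and the TATA box in 3 (7.89%) against 13.6%. These are matches of letters and do not show binding.

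Most subunit genes were lower in mdx5cv muscle, with median log2 differences from -0.67 to -0.62 in the 4 complexes. A gene was tested if its mean normalized count was at least 10, which 46 of the 51 genes passed, and was called at an adjusted p under 0.05 by limma on log2(normalized count + 1), with the adjustment over all 13677 genes tested. Of the 46, 39 fell and 1 rose, where 20.1% of all genes tested fell and 20.9% rose. The median log2 difference (mdx5cv minus WT) was -0.64 over the 46 genes and 0.00 over all genes tested. No gene fell by 1 or more on the log2 scale, as 3.27% of all genes tested did, and the largest fall was -0.93 by limma and -0.96 by edgeR and by DESeq2. In 35 genes all 4 mdx5cv values were under all 4 WT values, which held for 19.8% of all genes tested, and in 1 gene, Cox6a1, all were above. In bulk muscle, fewer cells of a type and less RNA per cell cannot be told apart.

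**Figure D1:**
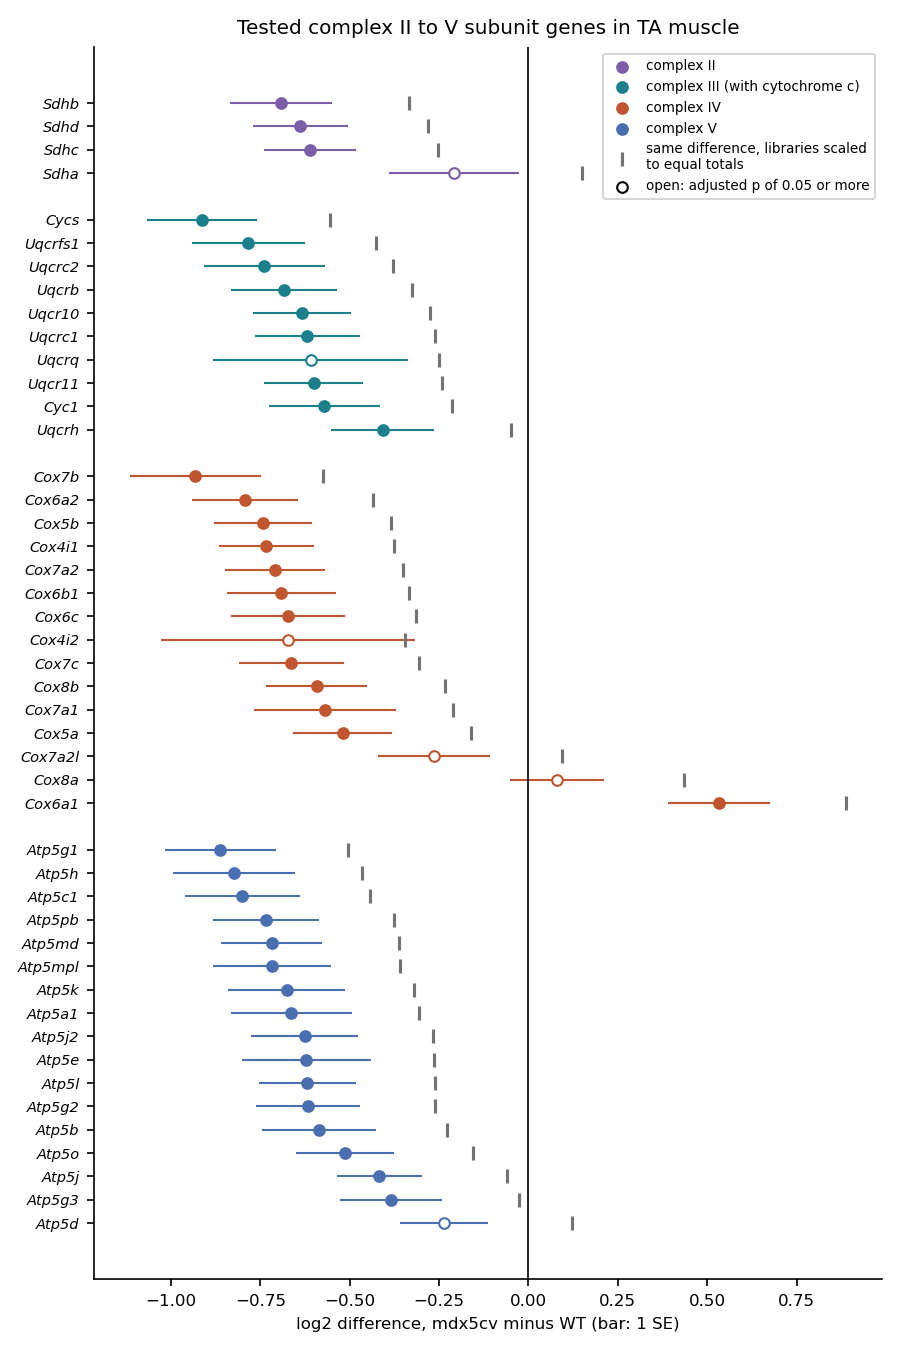
Log2 difference in normalized count (mdx5cv minus WT, 4 muscles each, x axis) of the 46 tested subunit genes (y axis), by complex, with bars of 1 SE, filled points for an adjusted p under 0.05 by limma and grey ticks for the same difference with libraries scaled to equal totals. Of the 46 points, 44 lie left of 0, with Cox8a at 0.08 and Cox6a1 at 0.53 on the right, and 41 of the grey ticks lie left of 0.

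The size of the fall depended on how the libraries were scaled. Mitochondrially encoded reads took 30.0% to 38.7% of the WT libraries and 25.3% to 32.1% of the mdx5cv libraries, and the 51 genes took 0.902% to 1.12% and 0.716% to 0.872% of all reads. With equal totals, a scale on which the median of all genes shifted by 0.36, 17 of the 46 genes fell, where 6.00% of all genes did, 2 rose (Cox6a1 and Cox8a) where 39.8% of all genes did, and the median was -0.28. Scaled to fast fiber transcripts, which shifted the median of all genes by 0.27, 13 fell against 5.23% of all genes, 1 rose against 24.7%, and the median was -0.37. With equal totals without mitochondrial genes (a shift of 0.21), 32 fell against 10.2% of all genes, 1 rose against 30.2%, and the median was -0.42. Genes with a greater length of all exons together were relatively higher in mdx5cv libraries. The slope was 0.0012 to 0.17 log2 units per log10 of length against -0.14 to -0.038 in WT. After a loess correction for this length 39 genes fell (29.0% of all genes did) and 1 rose (16.2% did).

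Summed over genes, each complex was lower in mdx5cv muscle, complex II the least. The summed normalized count in mdx5cv muscle was 73.2% of the WT mean for complex II, 63.2% for complex III, 62.3% for complex IV and 64.2% for complex V. Sdha, the most abundant complex II gene, stood at 86.2% of its WT mean, and Sdhb, Sdhd and Sdhc at 62.6%, 63.9% and 65.6%. The complex II median log2 difference (-0.62) was close to those of complexes III, IV and V (-0.63, -0.67 and -0.63). Of the sum over all 4, complex II took 8.84% ± 1.18 in WT muscle and 9.91% ± 0.258 in mdx5cv muscle (SD, n = 4), complex III 17.6% ± 1.03 and 17.3% ± 0.175, complex IV 20.4% ± 0.343 and 19.8% ± 0.192, and complex V 53.2% ± 0.581 and 53.0% ± 0.297. The complex IV share did not overlap between groups (20.1% to 20.9% against 19.6% to 20.03%), the other shares did, and these shares were not tested. Within mdx5cv the muscles differed: replicate 4 had the lowest value in 41 of the 46 genes and replicate 1 in the other 5. Within WT, replicate 2 had the highest value in 40 genes. Without either of these muscles 36 genes fell, and without both 36 fell, with a median of -0.43 (0.0021 over all genes tested). The share of all genes that fell was not counted with muscles left out.

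**Figure D2:**
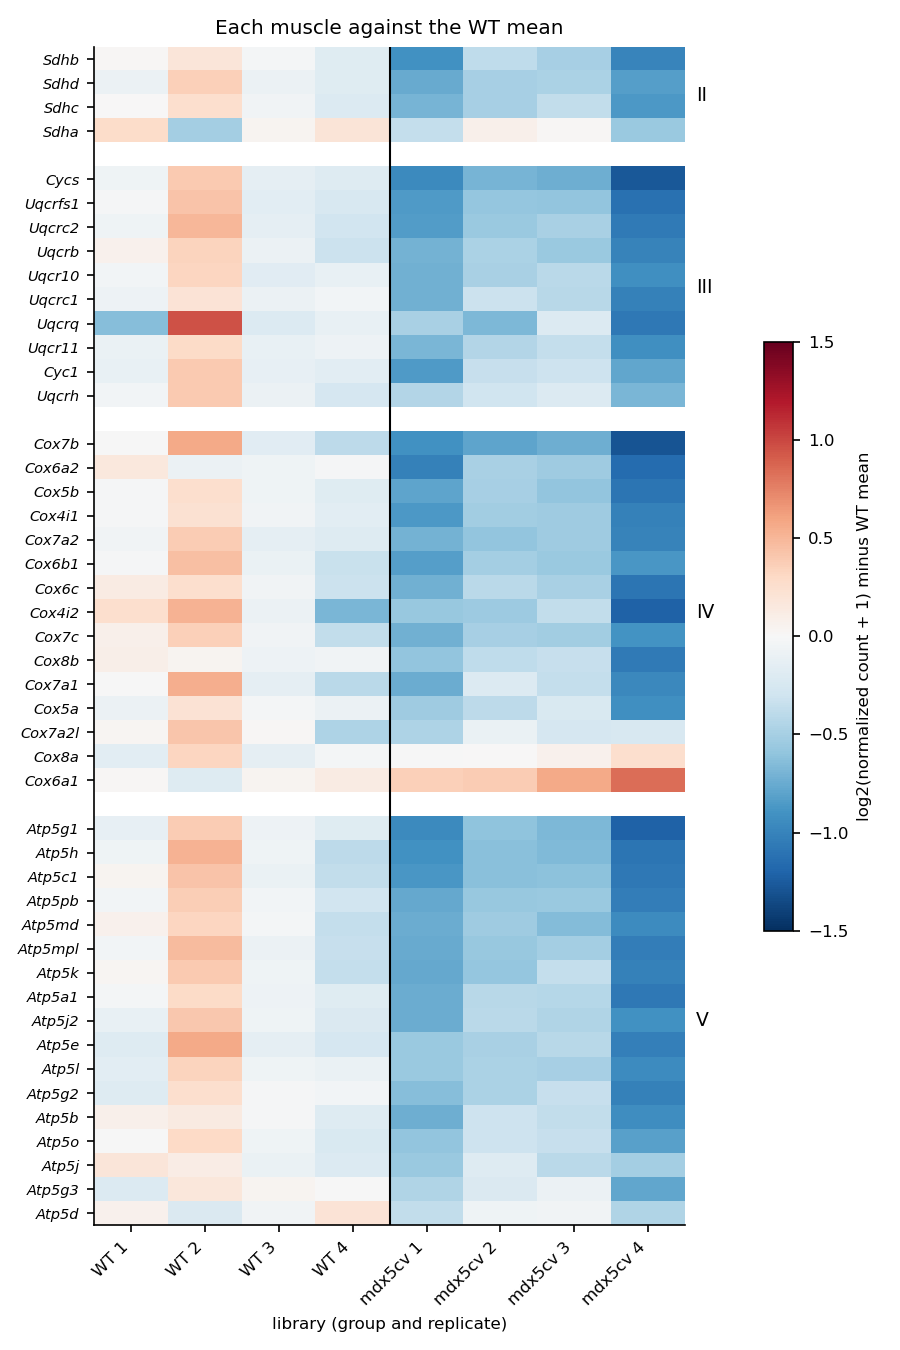
Each tested subunit gene (rows, by complex) in each muscle (columns), as log2(normalized count + 1) minus the gene's mean over the 4 WT muscles, blue for lower and red for higher. WT 2 is the reddest WT column and mdx5cv 4 the bluest mdx5cv column, and Cox6a1 is the row with higher values in all 4 mdx5cv muscles.

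In complex II, 3 of 4 genes fell, with a median log2 difference of -0.62. Sdhb, the iron-sulfur subunit, was 3447, 3859, 3340 and 2991 normalized counts in WT replicates 1 to 4 and 1808, 2611, 2410 and 1707 in mdx5cv. Every mdx5cv muscle was under every WT muscle, and the log2 difference was -0.69 (SE 0.14, adjusted p = 0.00189). Sdhd and Sdhc, which anchor the enzyme in the inner membrane, also fell without overlap, by 0.64 and 0.61 on the log2 scale. Both calls were lost with equal totals (-0.28, adjusted p = 0.0672, and -0.25, adjusted p = 0.0752) and on the fast fiber scale (adjusted p = 0.0939 and 0.104). Sdha, the flavoprotein subunit that oxidizes succinate, did not pass the test (-0.21, SE 0.18, adjusted p = 0.386). Its WT values were 6749, 3909, 5718 and 6349 and its mdx5cv values 4340, 5842, 5631 and 3770, so the groups overlapped, and WT replicate 2, high in most other subunits, was the lowest WT muscle here. Sdha was 0.15 with equal totals and -0.38 without WT replicate 2, and its adjusted p without any 1 muscle ran from 0.0702 to 0.724.

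In complex III with cytochrome c, 9 of 10 genes fell, with a median of -0.63. Cycs, the mobile cytochrome c that carries electrons to complex IV, fell most, from 1964 ± 395 normalized counts to 1041 ± 182 (SD, n = 4; log2 difference -0.91, SE 0.15, adjusted p = 0.000446). Its WT muscles were at 1853, 2547, 1764 and 1691 and its mdx5cv muscles at 999, 1195, 1169 and 801, with no overlap. Cycs also fell with equal totals (-0.56, adjusted p = 0.00305) and with scaling to fast fiber transcripts (adjusted p = 0.00586). Uqcrfs1, the Rieske iron-sulfur protein, ran from 2870 to 4536 in WT and from 1559 to 2271 in mdx5cv (-0.78), and Uqcrc2, a core protein, from 3244 to 5604 and from 1903 to 2819 (-0.74). Neither gene overlapped between groups. Cyc1, the heme-bearing subunit that hands electrons to cytochrome c, fell by 0.57 on the log2 scale, a call lost with equal totals (-0.21, adjusted p = 0.210), with equal totals without mitochondrial genes (-0.36, adjusted p = 0.0610) and on the fast fiber scale (-0.31, adjusted p = 0.185). The smallest call was Uqcrh, the hinge protein (-0.41, SE 0.14, adjusted p = 0.0372), whose groups overlapped. Its call was lost without WT replicate 1, 2 or 3 or mdx5cv replicate 1 or 4, with adjusted p from 0.0580 to 0.0980, and on these 3 scales (-0.05, -0.20 and -0.14). Uqcrq, the gene that missed the test (-0.61, SE 0.27, adjusted p = 0.0911), was at 2019 in WT replicate 2 and from 670 to 969 in the other WT muscles.

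In complex IV, 11 of 15 tested genes fell and 1 rose, with a median of -0.67. Cox7b, a small subunit, fell most of all 46 genes: 2943, 4384, 2639 and 2267 normalized counts in WT against 1580, 1715, 1783 and 1205 in mdx5cv (-0.93, SE 0.18, adjusted p = 0.00137). Cox7b was lower in each mdx5cv muscle than in any WT muscle, and without WT replicate 4 it was the gene that passed a log2 fall of 1 (-1.06). Cox5b and Cox4i1, nuclear subunits found in all tissues, fell by 0.74 and 0.73 on the log2 scale with no overlap. Cox4i2, the alternative isoform of Cox4i1 known from lung, was at 14.9 ± 5.31 normalized counts in WT and 8.77 ± 2.23 in mdx5cv (-0.67, adjusted p = 0.149). Per kb of transcript Cox4i2 stood at 20.4 and Cox4i1 at 5978 normalized counts in WT. Cox7a2l, a relative of Cox7a2 that takes part in joining complexes III and IV into supercomplexes, missed the test (-0.26, SE 0.16, adjusted p = 0.198).

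The isoform pairs were read as a log2 ratio within each library, which no size factor can change beyond the pseudocount of 1. Cox6a2, the muscle isoform, was at 5547, 4672, 4733 and 4897 normalized counts in WT and 2457, 3543, 3425 and 2231 in mdx5cv, a fall of all muscles without overlap (-0.79, SE 0.15, adjusted p = 0.00101). Cox6a1, its ubiquitous partner, was at 111, 95.4, 113 and 120 in WT and 140, 142, 162 and 197 in mdx5cv, a rise without overlap (0.53, SE 0.14, adjusted p = 0.00927) that was also called with equal totals (0.89) and with scaling to fast fiber transcripts (0.80). The log2 ratio of Cox6a2 to Cox6a1 was 5.63, 5.60, 5.38 and 5.34 in WT and 4.12, 4.63, 4.39 and 3.50 in mdx5cv. It was lower in each mdx5cv muscle, with a difference of -1.33 (exact two-sided permutation test, p = 0.0286, the smallest that 4 against 4 allows, adjusted p = 0.0429 over 3 pairs). Without any 1 muscle the difference ran from -1.48 to -1.11, but 3 against 4 cannot pass the threshold after adjustment.

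Cox8b and Cox8a moved apart as well, though less. Cox8b was at 2111, 2033, 1876 and 1916 normalized counts in WT and 1313, 1526, 1561 and 953 in mdx5cv (-0.59, SE 0.14, adjusted p = 0.00484). Cox8a was at 185, 258, 188 and 201 in WT and 206, 207, 215 and 245 in mdx5cv, overlapping and not called (0.08, SE 0.13, adjusted p = 0.659), but it was called higher with equal totals (0.44, adjusted p = 0.04). In WT muscle their log2 ratio averaged 3.26 ± 0.221, and in mdx5cv muscle 2.59 ± 0.433 (SD, n = 4), with no overlap. The difference was -0.67 (exact two-sided permutation test, p = 0.0286, adjusted p = 0.0429), and it was -0.46 without mdx5cv replicate 4, the lowest muscle.

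Cox7a1 and Cox7a2 fell together. Cox7a1 was at 2064, 3019, 1878 and 1554 in WT and 1229, 1794, 1612 and 1057 in mdx5cv, where mdx5cv replicates 2 and 3 overlapped the WT range (-0.57, SE 0.20, adjusted p = 0.0354). The call was lost without WT replicate 1, 2 or 3 or mdx5cv replicate 1 or 4 (adjusted p from 0.0523 to 0.104). Cox7a2, here the ubiquitous isoform, was at 1248, 1677, 1174 and 1130 in WT and 788, 859, 889 and 645 in mdx5cv, with no overlap (-0.71, SE 0.14, adjusted p = 0.00142). The log2 ratio was 0.68 ± 0.162 in WT and 0.82 ± 0.186 in mdx5cv, a difference of 0.14 that was not called (exact two-sided permutation test, p = 0.371). So with the authors' size factors 1 ubiquitous isoform rose, 1 fell and 1 was not called, while all 3 muscle isoforms fell. With equal totals and with scaling to fast fiber transcripts, Cox6a2 alone of the muscle isoforms was called lower: Cox8b (-0.23, adjusted p = 0.105, and -0.33, adjusted p = 0.0860) and Cox7a1 (-0.21, adjusted p = 0.30, and -0.30, adjusted p = 0.242) lost their calls. Cox7a2 lost its call on the fast fiber scale (-0.44, adjusted p = 0.0544).

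Per length of transcript, the muscle isoforms remained the main form in mdx5cv muscle. Of the Cox6a pair, Cox6a1 made up 2.57% ± 0.257 in WT muscle and 6.44% ± 2.17 in mdx5cv muscle (SD, n = 4). Cox8a made up 6.42% ± 0.938 and 10.03% ± 2.97 of its pair, and Cox7a2 27.2% ± 2.25 and 25.3% ± 2.40 of its own. The highest shares of Cox6a1 (9.50%) and Cox8a (14.4%) were in mdx5cv replicate 4. Testis isoforms of complex IV served as a low reference: Cox7b2 and Cox8c had 0 reads in every library, which allows up to 3 reads in each, and Cox6b2 had a mean of 0.363 normalized counts.

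**Figure D3:**
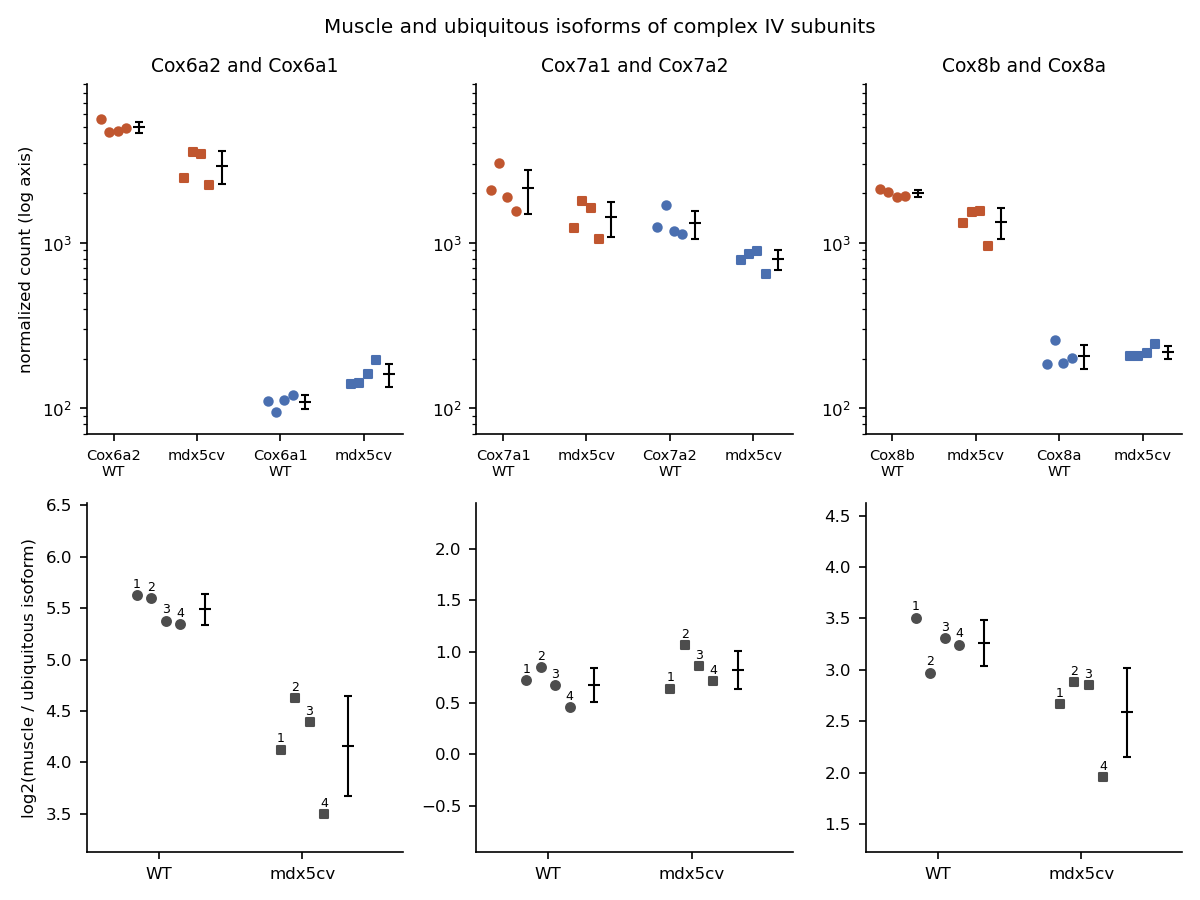
Top, normalized counts on a log axis of the muscle isoform (orange) and the ubiquitous isoform (blue) of 3 complex IV subunits in WT (circles) and mdx5cv (squares) muscles; bottom, the log2 ratio in each library with its replicate number, and black marks for mean and SD (n = 4). All 4 mdx5cv ratios lie under all 4 WT ratios for Cox6a2 to Cox6a1 and for Cox8b to Cox8a, and the groups overlap for Cox7a1 to Cox7a2.

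In complex V, 16 of 17 tested genes fell, with a median of -0.63. The most abundant were Atp5b and Atp5a1, the beta and alpha subunits of the catalytic head, which fell without overlap by 0.59 (SE 0.16) and 0.66 (SE 0.17) on the log2 scale, to 67.5% and 63.7% of their WT means. Atp5b lost its call with equal totals (-0.23, adjusted p = 0.114) and on the fast fiber scale (-0.32, adjusted p = 0.0725), and Atp5a1 with equal totals (-0.31, adjusted p = 0.0581). Atp5c1, the gamma subunit that turns inside the head, ran from 4614 to 7993 in WT and from 2824 to 3869 in mdx5cv (-0.80). Atp5h, a subunit of the peripheral stalk, ran from 1924 to 3625 and from 1177 to 1636 (-0.82). Atp5d, the delta subunit of the central stalk, was the gene that missed the test (-0.24, SE 0.12, adjusted p = 0.147), with WT muscles from 1465 to 1958 and mdx5cv muscles from 1247 to 1637.

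The c-ring, the rotor in the membrane, can be built from the product of Atp5g1, Atp5g2 or Atp5g3, which give the same mature protein. Atp5g1 was at 4896, 6899, 5046 and 4666 normalized counts in WT and 2729, 3485, 3334 and 2298 in mdx5cv, with no overlap (-0.86, SE 0.16, adjusted p = 0.000753). Atp5g2 fell by 0.62 on the log2 scale, a call lost with equal totals (-0.26, adjusted p = 0.126) and on the fast fiber scale (-0.35, adjusted p = 0.121). Atp5g3 was at 1760, 2290, 2085 and 2015 in WT and 1480, 1749, 1904 and 1183 in mdx5cv, and its groups overlapped (-0.38, SE 0.14, adjusted p = 0.0453). Atp5g3 was no longer called without WT replicate 2, 3 or 4 or mdx5cv replicate 1 or 4 (adjusted p from 0.0723 to 0.112), was -0.25 without the last, and was not called with equal totals (-0.03), with equal totals without mitochondrial genes (-0.17) or on the fast fiber scale (-0.12). Of the counts of all 3 genes, WT muscles held 66.5% ± 2.51 in Atp5g1 and 25.4% ± 2.13 in Atp5g3, against 59.7% ± 1.42 and 31.7% ± 1.08 for mdx5cv muscles (SD, n = 4). Neither share overlapped between groups. These shares were not tested and are not per length of transcript. Per kb of the longest principal transcript Atp5g3 stood highest, at 2818 normalized counts in WT and 2184 in mdx5cv. This order depends on the lengths used, and a shorter Atp5g1 transcript would raise the value of Atp5g1. Atp5g1, with a transcript of 4715 bases against 723 for Atp5g3, stood at 1140 and 628, and Atp5g2 at 892 and 585.

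**Figure D4:**
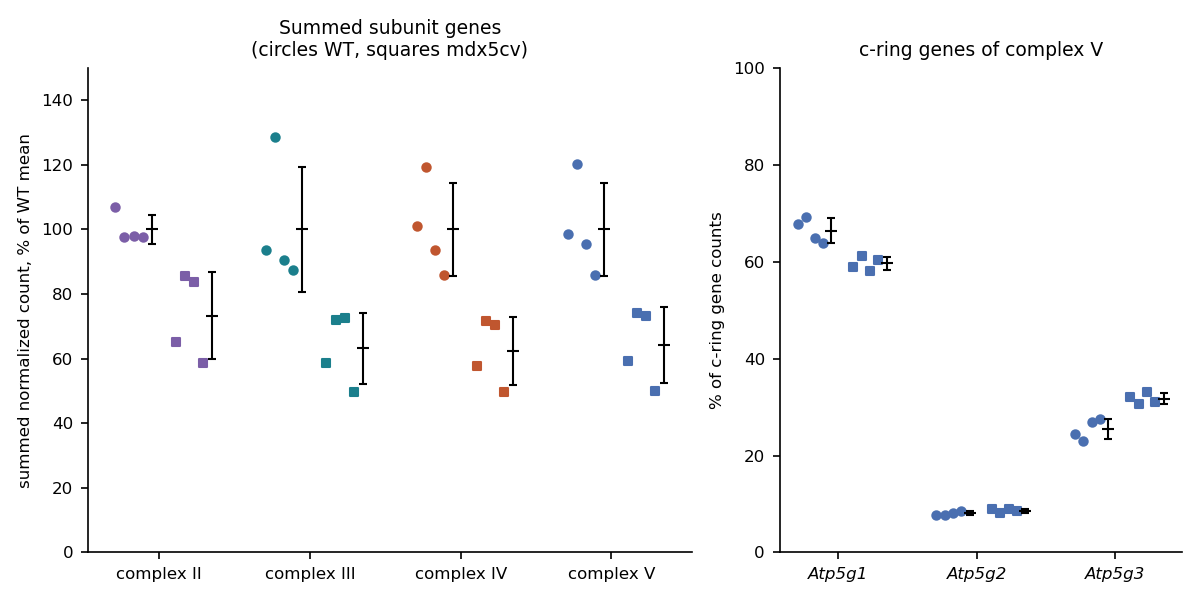
Left, summed normalized count of each complex's genes as a percentage of its WT mean in WT (circles) and mdx5cv (squares) muscles; right, share of the c-ring gene counts held by Atp5g1, Atp5g2 and Atp5g3, with black marks for mean and SD (n = 4). The mdx5cv means on the left are 73.2%, 63.2%, 62.3% and 64.2%, and on the right the Atp5g1 and Atp5g3 shares do not overlap between groups.

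Among the other genes of the pathway, with the authors' size factors, more fell than rose in each list of assembly factors. Over all genes tested, 20.1% fell and 20.9% rose. Of 4 complex II assembly factors, 3 fell and 0 rose, among them Sdhaf3 (-0.92, adjusted p = 0.000487). Their median was -0.63, or -0.27 with equal totals. Of 6 complex III assembly factors, 5 fell and 0 rose, with a median of -0.54, or -0.18 with equal totals. Uqcc1, an early assembly factor, was at 1281 ± 226 normalized counts in WT and 633 ± 114 in mdx5cv (-1.02, adjusted p = 0.000175). Of 24 complex IV assembly factors tested, 11 fell and 1 rose (the list's Pet117 had 0 reads), with a median of -0.41, or -0.06 with equal totals. Lrpprc, which stabilizes mitochondrial messenger RNA, fell (-0.66, adjusted p = 0.000651), and Cox17, a copper chaperone, rose (0.47, adjusted p = 0.0417).

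Of 7 complex V assembly factors and partners, 5 fell and 2 rose, with a median of -0.69, or -0.34 with equal totals. Slc25a4, the ADP/ATP carrier of muscle, ran from 28511 to 29858 normalized counts in WT and from 11219 to 19879 in mdx5cv (-0.86, adjusted p = 0.0019). Slc25a5, the form of that carrier common outside muscle, ran from 194 to 286 in WT and from 308 to 529 in mdx5cv (0.74, adjusted p = 0.00382). Carrier genes thus did as Cox6a2 and Cox6a1 did, the muscle form lower and the other form higher, without overlap in either. Atpif1, an inhibitor of ATP hydrolysis by complex V, also rose (0.58, adjusted p = 0.00541).

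All 6 mitochondrially encoded genes listed for complexes III to V fell, where 20.1% of all genes tested did. Their log2 differences ran from -1.94 to -0.82. mt-Co1, a catalytic subunit of complex IV, ran from 288759 to 491727 normalized counts in WT and from 128207 to 214308 in mdx5cv (-1.24, adjusted p = 0.004). mt-Co2, mt-Co3, mt-Atp6 and mt-Atp8 had mean WT values from 22.5 to 245, far under mt-Co1, and how the counting treated reads shared with nuclear copies is not given in the sources used here. Of 8 genes chosen as references for mitochondrial mass, 7 fell and 0 rose, with a median of -0.52, or -0.17 with equal totals. Timm23, an inner membrane import channel, fell (-1.06, adjusted p = 2.62e-05), and Cs, citrate synthase, did not pass the test (-0.31, adjusted p = 0.0932).

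Markers of cell types moved with the groups, and their part in the subunit differences was not tested. Their calls use the authors' size factors, with which 20.1% of all genes tested fell and 20.9% rose. Among 9 fast fiber genes 3 fell and 0 rose (summed normalized count 1218112 to 1446524 in WT, 898543 to 1353818 in mdx5cv), with the lowest sum in mdx5cv replicate 4. Among 8 oxidative and slow fiber genes 2 fell and 4 rose (7098 to 11992 against 2064 to 6953). Myh2, the myosin of fast oxidative fibers, fell (-1.54, adjusted p = 0.0241), and Myl3 fell more (-3.56, adjusted p = 0.000326). Tnni1, the slow troponin I, rose (4.15, adjusted p = 7.28e-06), as did Tnnt1, Tnnc1 and Atp2a2. Myl2 and Myh7 were not called (adjusted p = 0.418 and 0.111). All 6 regenerating fiber genes rose (118 to 143 against 2175 to 8502), with Mymx at 0 in every WT muscle.

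All 6 macrophage genes rose (481 to 746 against 3565 to 8548), and 4 of 5 fibroblast genes rose and 0 fell (5196 to 7870 against 17446 to 31390). Regenerating fiber, macrophage and fibroblast sums were all highest in mdx5cv replicate 4, the mdx5cv muscle with the highest Cox6a1 and Cox8a (Cox8a was higher still in WT replicate 2). All 4 endothelial genes fell (2394 to 2882 against 1438 to 1878), as did 3 of 5 pericyte and smooth muscle genes while 2 rose (5791 to 7200 against 4070 to 4720). Of 3 adipocyte genes 2 fell and 0 rose (44.7 to 373 against 13.9 to 44.7), and all 3 erythrocyte genes fell (600.4 to 1086 against 279.7 to 609.4).

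The 5 genes not tested were the testis isoforms Cox6b2, Cox7b2 and Cox8c, Cox6c2, annotated as a processed pseudogene (mean 4.11), and a second identifier of Atp5o with 0 reads that overlaps the first. Every -ps gene left out had some reads, but only Cox5b-ps (mean 20.1) and Atp5pb-ps (mean 12.0) had a mean of at least 10. So Cox5b, Atp5pb and other subunit genes may share some reads with near-identical copies.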

How the data were processed

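RNA was measured by stranded total RNA-seq in 8 TA muscles, grouped by the genotype in the labels. The authors deposited a signal per gene: reads per gene scaled by DESeq2-type size factors, for every gene of the annotation. The submitters' processing notes name Trim Galore 0.6.4, STAR 2.6.0c, SAMtools 1.9, featureCounts, MultiQC 1.6 and DESeq2 1.26.0 with mm10. The annotation release and the use of strand in counting are not given in the sources used here. Near-identical or overlapping genes may therefore share reads. Multiplied back by its size factor, every value was a whole read (100% within 0.01 read). Depth was 13175524 to 14921057 reads per sample. Replicates of 1 group differed by 8.59 to 38.4 chi-square per degree of freedom, and each was kept as its own sample. The labels do not state that each sample is a separate animal, so p-values measure only the spread between these samples, which may be technical.

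The fit used limma 3.58.1 (R 4.3.3; lmFit, eBayes with a variance trend, two-sided) on log2(normalized count + 1) over the 13677 genes with a mean of at least 10, with Benjamini-Hochberg adjustment over all of them. A log2 difference on this scale understates the change of low genes. Isoform log2 ratios were compared by exact permutation tests in SciPy 1.17.1. edgeR 4.0.16 and DESeq2 1.42.0 on recovered reads, 4 other scalings, a loess correction for length, other pseudocounts and filters, a replicate block and leaving out muscles were alternatives. The limma step was tested on simulated data. Positions and lengths are from GENCODE M21 (same build, 55141 of 55401 IDs matched). Values per kb or per length of transcript used the principal transcript, the longest where several are marked. For Atp5c1, which has none marked, all exons were used. The length slopes and the loess correction instead used all exons of each gene, which can be much longer (Atp5l, 6443 against 544 bases).

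The members and gene lists were chosen with earlier results of these data known. Named genes were the isoform pairs, Cox4i1 and Cox4i2, the Sdh genes, Cycs, Cyc1, the c-ring, alpha and beta genes, any gene past a log2 difference of 1, and in each complex the 3 lowest and the 1 highest log2 difference. Uqcrq, Cox7a2l and the genes not tested were named after their values were seen.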

Additional observations from a re-analysis of the deposited data

Results flagged for a closer look

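In 4 of 98 sets of 4 muscles, 1 muscle stood far from the other 3 (by its gap over the whole range), where chance alone gives about 4.9. All 4 were WT replicate 2 and high. On the log2(normalized count + 1) scale, Cyc1 was 11.78 there against 11.23 to 11.28 in the other WT muscles, Uqcrc1 12.80 against 12.51 to 12.55, Uqcr11 11.04 against 10.64 to 10.68, and Atp5e, the epsilon subunit gene of complex V, 11.49 against 10.66 to 10.79. Without WT replicate 2, 36 of the 46 genes fell and the median log2 difference was -0.54 (-0.00081 over all genes tested).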

How the results depend on the processing

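The scaling of the libraries was the choice that changed most. With equal totals 17 genes fell, 2 rose and the median log2 difference was -0.28. Scaled to fast fiber transcripts 13 fell and the median was -0.37. With these scalings Atp5d turned to 0.12 and 0.029, Cox7a2l to 0.094 and 0.0014, and Sdha to 0.15 and 0.057. Sdha was also 0.0039 with equal totals without mitochondrial genes. None of these values was called. Under every other alternative, including edgeR and DESeq2, 32 to 39 genes fell and 1 rose. Of all 13677 genes tested, 2681 fell and 2869 rose by edgeR, and 2714 fell and 2842 rose by DESeq2. The share of all genes called was not counted with muscles left out, a replicate block, other pseudocounts or other filters. With the loess correction for length 2 genes, Cycs (-1.06) and Atp5g1 (-1.04), passed a log2 fall of 1. Leaving out 1 muscle at a time, 36 to 39 genes fell, 1 to 1 rose, 0 to 1 passed a log2 fall of 1 and the median ran from -0.71 to -0.53. The ratio differences then ran from -1.48 to -1.11 for Cox6a2 against Cox6a1. They ran from 0.06 to 0.20 for Cox7a1 against Cox7a2 and from -0.77 to -0.46 for Cox8b against Cox8a. The first and the last had an adjusted p of 0.0857 by the exact permutation test, whose smallest unadjusted p at 3 against 4 is 0.0571. Without both WT replicate 2 and mdx5cv replicate 4, an alternative chosen after seeing the data, these ratio differences were -1.07 and -0.56 (adjusted p = 0.15 by the exact permutation test, which cannot pass at 3 against 3). The cause of these changes was not tested beyond the smaller number of muscles.

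Replicate numbers are shared by the groups. Same-numbered muscles deviated together with correlations of only 0.050, 0.031, 0.072 and 0.146, and not every muscle correlated best with its own number. The main tests used no pairing. These correlations cannot show whether same-numbered muscles shared a preparation. With a replicate block 39 genes fell and 1 rose. The ratio differences with the replicate block were -1.33 and -0.67 with an adjusted p of 0.1875 by an exact sign-flip test, whose smallest unadjusted p is 0.125.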
